A study of Mus musculus with 6 samples.

Results

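The genes examined encode enzymes that write, copy or remove cytosine methylation, with their targeting proteins: Dnmt1, Uhrf1, Dnmt3a, Dnmt3b, Dnmt3l, Tet1, Tet2, Tet3, Tdg and Zfp57. The 10 genes were chosen by name, with earlier results of these data known. Every transcript that carried one of these names in the deposited annotation was taken. This gave 75 of 114412 transcripts and 10 of 35974 named genes. Strand-specific RNA-seq was performed on poly(A) RNA of embryonic ovaries of C57Bl6j mice at E15.5. The 3 PB pools came from embryos whose pregnant mothers had received panobinostat (PB), an inhibitor of histone deacetylases, by gavage at 5 mg/kg between E6.5 and E15.5, and the 3 control pools from mothers given DMSO in water. The sample annotation gives that dose per day, whereas the methods describe dosing on alternate days. The groups follow the treatment labels. The design text calls the mice of the control libraries exposed as well, under the same numbers as those of the PB libraries, so the direction of every difference rests on the treatment labels. Whole ovaries were pooled, 4 per pool by the extraction protocol and 6 to 8 per pool by the design text, so each value averages several embryos and all ovarian cell types, and no cells were sorted.

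The DNA methyltransferases add a methyl group to cytosines that are followed by guanine (CpG sites). DNMT1, recruited by UHRF1 to hemimethylated DNA behind the replication fork, keeps existing methylation, whereas DNMT3A and DNMT3B, aided by the catalytically inactive DNMT3L, set methylation on unmethylated DNA. The TET enzymes oxidise methylcytosine, TDG excises its oxidised forms for repair, and ZFP57 binds methylated imprinting control regions and protects them. Female germ cells lose most of their methylation before they enter meiosis in the fetal ovary, and regain it only in growing oocytes after birth.

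Several of these genes have alternative start sites, in part with different products. The 250 bases that precede 6 of these starts are shown because counts are also given by start below. They are RefSeq promoter windows of build GRCm38.p6, of which mm10 is the UCSC name, written 5′ to 3′ on the strand of the gene, with every CG dinucleotide in capitals. The first 2 windows belong to the main Dnmt1 start and to the upstream Dnmt1 start of the oocyte form, the next 2 to the long and the short form of Dnmt3a, and the last 2 to the upstream and downstream starts of Uhrf1. The long-form window of Dnmt3a precedes the start of NM_007872.4 at 3806980. It lies downstream of the start at 3806499 of XM_006514953.3, the long-form transcript with the most counts over all pools.
Dnmt1 main start, chr9:20952980-20953229, minus strand: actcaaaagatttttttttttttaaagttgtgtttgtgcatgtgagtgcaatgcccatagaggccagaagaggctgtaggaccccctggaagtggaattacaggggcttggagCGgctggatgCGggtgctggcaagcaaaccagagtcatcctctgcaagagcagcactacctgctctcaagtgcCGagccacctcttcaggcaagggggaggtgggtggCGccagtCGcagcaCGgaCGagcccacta
Dnmt1 upstream start, chr9:20959889-20960138, minus strand: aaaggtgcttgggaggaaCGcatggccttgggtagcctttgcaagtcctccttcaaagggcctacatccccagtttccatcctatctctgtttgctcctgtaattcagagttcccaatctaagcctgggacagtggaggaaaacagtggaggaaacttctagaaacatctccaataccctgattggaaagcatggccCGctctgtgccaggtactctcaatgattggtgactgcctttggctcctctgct
Dnmt3a long form, chr12:3806730-3806979, plus strand: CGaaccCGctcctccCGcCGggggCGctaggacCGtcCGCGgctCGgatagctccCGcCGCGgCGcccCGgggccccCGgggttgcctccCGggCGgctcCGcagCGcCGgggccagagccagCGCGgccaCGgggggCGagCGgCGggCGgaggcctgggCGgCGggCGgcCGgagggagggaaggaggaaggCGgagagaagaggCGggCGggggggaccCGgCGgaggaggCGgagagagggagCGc
Dnmt3a short form, chr12:3891494-3891743, plus strand: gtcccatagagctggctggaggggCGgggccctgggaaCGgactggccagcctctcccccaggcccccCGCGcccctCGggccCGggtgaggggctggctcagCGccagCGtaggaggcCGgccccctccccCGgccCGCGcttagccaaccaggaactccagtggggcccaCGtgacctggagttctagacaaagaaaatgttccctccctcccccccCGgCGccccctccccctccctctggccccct
Uhrf1 upstream start, chr17:56303087-56303336, plus strand: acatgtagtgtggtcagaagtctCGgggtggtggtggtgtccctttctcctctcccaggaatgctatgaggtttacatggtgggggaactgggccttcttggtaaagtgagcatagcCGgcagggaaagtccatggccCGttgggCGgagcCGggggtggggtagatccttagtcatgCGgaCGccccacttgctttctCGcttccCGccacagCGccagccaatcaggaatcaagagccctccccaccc
Uhrf1 downstream start, chr17:56304063-56304312, plus strand: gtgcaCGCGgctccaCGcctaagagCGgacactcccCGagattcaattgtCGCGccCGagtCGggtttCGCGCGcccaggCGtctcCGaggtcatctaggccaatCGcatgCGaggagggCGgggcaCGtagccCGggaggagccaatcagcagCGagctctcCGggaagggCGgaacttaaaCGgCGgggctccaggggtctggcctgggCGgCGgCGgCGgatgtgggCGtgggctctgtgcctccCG

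The windows differed widely in CpG content. The window before NM_007872.4, of the long Dnmt3a form, held 38 CG and that of the short form 15, whereas the median of all 32851 promoter windows of this length was 6. The downstream Uhrf1 start had 30 CG and the upstream one 10. The main Dnmt1 start had 7 CG and the upstream, oocyte-type start 2. A further window, before the start at 20952623 at the downstream end of the main Dnmt1 group, overlapped exons of 5 transcripts and held 26 CG, 3 CCAAT and 2 GGGCGG. The GC box GGGCGG, counted on both strands, occurred 5 times in the same long-form Dnmt3a window and 3 times before the downstream Uhrf1 start, and 32.7% of all windows held at least 1. The letters CCAAT, also counted on both strands, occurred 4 times before the upstream Dnmt1 start and were found in 33.8% of all windows. No methylation was measured in these libraries.

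The deposited counts summed to between 97165644 and 125985399 per pool. The marker genes of germ cells, pregranulosa cells and interstitial cells were detected in every pool. Of the 55 marker genes tested in 9 lists, 0 passed the call rule given below, against 0.0154% of all genes. For 5 the unadjusted p-value was under 0.05 by edgeR, against 4.46% of all genes. These were Runx1, with a log2 fold change (PB over control) above 0, and Pou5f1, Amhr2, Dmrt1 and Hba-a2, below 0. The summed level of the 10 germ cell markers ranged from 826 to 1072 CPM (counts scaled to a common library size) in control and from 697 to 1300 in PB-exposed ovaries, with the lowest value in PB 2. Summed, the 7 red blood cell genes ranged from 15118 to 32427 CPM in control and from 18648 to 20350 CPM in PB. All 7 had a log2 fold change below 0, with a median of -0.30. The part of these differences in the results below was not tested.

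Expression of the 10 genes spanned from nearly undetected to among the higher-expressed genes of the ovary. To compare genes, counts were divided by transcript length and scaled to a common total, as TPM. Dnmt1 averaged 72.0 ± 4.63 TPM (SD, n = 6) and Uhrf1 71.8 ± 3.52 TPM, and the 6 values of one overlapped those of the other. At this level Dnmt1 was at or above 91.9% of the genes tested. Dnmt3a followed with 54.7 ± 5.10 TPM, below every value of Uhrf1. Tdg at 19.7 ± 1.18 TPM, Tet3 at 14.6 ± 1.00 TPM and Zfp57 at 8.26 ± 0.88 TPM were each separate from their neighbours in this order. Tet2 at 5.60 ± 0.68 TPM, Tet1 at 5.30 ± 0.50 TPM and Dnmt3b at 5.10 ± 0.41 TPM overlapped one another. Dnmt3l was last at 0.028 ± 0.032 TPM.

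**Figure D1:**
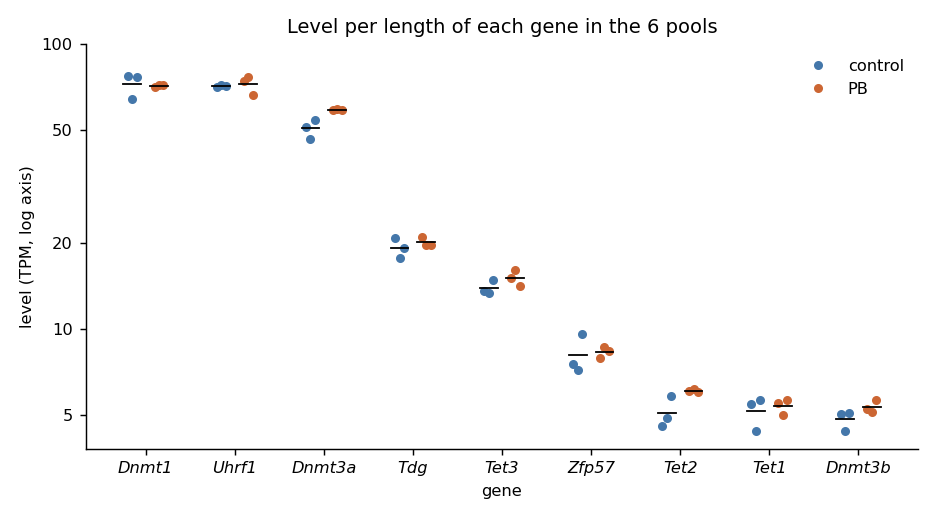
Level per length (TPM, log axis) of 9 genes in each control pool (blue) and PB pool (orange), with the group mean as a black line; Dnmt3l, at 0.028 TPM, is not drawn. The genes fall from about 72.0 TPM for Dnmt1 to 5.10 TPM for Dnmt3b, and Dnmt1 with Uhrf1, and Tet2 with Tet1 and Dnmt3b, overlap.

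TPM values are not suited to comparing the groups here, since the median of all tested genes was itself 0.11 higher in PB on the log2 scale. The median for the 9 tested members was 0.06. TPM of every PB pool lay above every control pool for 3 of the 9, against 14.4% of all genes, and the part of the shift in this was not tested. Because of the shift, the groups were compared on CPM after TMM scaling, a correction for library composition. The question was whether exposure to PB altered transcript levels of these enzymes. Calls by edgeR's quasi-likelihood test needed an FDR of 0.05 or less together with a change of 2-fold or more.

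None of the 9 tested genes was called. All 9 differed by 1.11-fold or less, and none had an unadjusted p-value under 0.05 in the main edgeR fit or in DESeq2. Of all 19435 genes tested, 0.0154% were called and 4.46% had an unadjusted p-value under 0.05. The FDR of the 9 genes ranged from 0.888 to 0.999 in edgeR's test with Benjamini-Hochberg adjustment. The log2 fold changes lay between -0.10 and 0.15, 5 above 0 and 4 below, with a median size of 0.057 against 0.0998 over all genes tested. The 95% intervals of the 9 genes together ran from 0.806-fold to 1.28-fold, so a doubling or a halving lay outside each of them. Whether a level reflects the number of cells of a type or the RNA per cell cannot be told apart in whole ovaries. The labels do not say that the pools came from separate litters, so p-values measure only the spread between these pools.

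Dnmt1, the maintenance methyltransferase, lies at chr9:20907206-20959888 (mm10, minus strand). Its gene sum was 265, 252 and 269.6 CPM in the control pools and 239.6, 257 and 243 CPM in the PB pools. PB 2 lay within the control range and the other PB pools below it. The log2 fold change was -0.09 (SE 0.048, 95% interval -0.20 to 0.03, unadjusted p = 0.111 by edgeR). Uhrf1, which guides DNMT1 to newly replicated DNA, measured 169, 184 and 165 CPM in control and 162, 179.7 and 143 CPM in PB. The groups overlapped, PB 3 was the lowest pool, and the log2 fold change was -0.10 (SE 0.090, 95% interval -0.31 to 0.12).

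Dnmt3a, a de novo methyltransferase, was the one member whose groups did not overlap on this scale, against 10.7% of all genes. It measured 327, 318 and 335 CPM in control and 342, 370.0 and 343 CPM in PB. The log2 fold change was 0.11 (SE 0.049, 95% interval -0.01 to 0.23, unadjusted p = 0.0658 and FDR = 0.888 by edgeR). Dnmt3b, the second de novo enzyme, measured 14.2, 13.4 and 13.7 CPM in control and 13.6, 14.1 and 14.6 CPM in PB, and the pools of both groups were interleaved. Its log2 fold change was 0.03 (95% interval -0.12 to 0.18).

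Dnmt3l, the cofactor of de novo methylation in germ cells, was close to the limit of detection. It had 0, 0 and 8 counts in control and 5, 0 and 7 counts in PB, all assigned to NM_001081695.2, which starts at position 78042287 of chromosome 10. A count of 0 allows up to 3 counts, or 0.0257 to 0.0319 CPM depending on the pool, and covers counting error only. The gene did not pass the filter on low counts and was not tested.

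The intervals of all 3 TET genes included 0. Tet1 measured 43.0, 39.8 and 46.1 CPM in control and 42.0, 41.7 and 43.7 CPM in PB, with all PB values inside the control range (log2 fold change -0.02, 95% interval -0.18 to 0.14). Tet2 measured 28.6, 32.6 and 35.2 CPM in control and 34.5, 37.8 and 34.4 CPM in PB. Control 1 was the lowest pool, PB 2 the highest, and the groups overlapped (log2 fold change 0.15, 95% interval -0.07 to 0.36). Tet3, at 106, 112 and 111 CPM in control and 106, 121 and 102 CPM in PB, had its lowest and highest value both in PB pools (log2 fold change 0.0030, 95% interval -0.17 to 0.18).

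Tdg, the glycosylase that removes oxidised methylcytosine, measured 40.6, 37.0 and 36.7 CPM in control and 37.1, 37.6 and 35.2 CPM in PB (log2 fold change -0.06, 95% interval -0.21 to 0.09). The groups overlapped. RefSeq lists a pseudogene, Tdg-ps, that had 242 to 322 counts per pool in these files, and how reads were divided between the copies is uncertain. Zfp57, the imprint protector, measured 13.6, 13.8 and 14.9 CPM in control and 13.6, 14.8 and 13.8 CPM in PB, with interleaved pools (log2 fold change 0.0012, 95% interval -0.17 to 0.17).

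**Figure D2:**
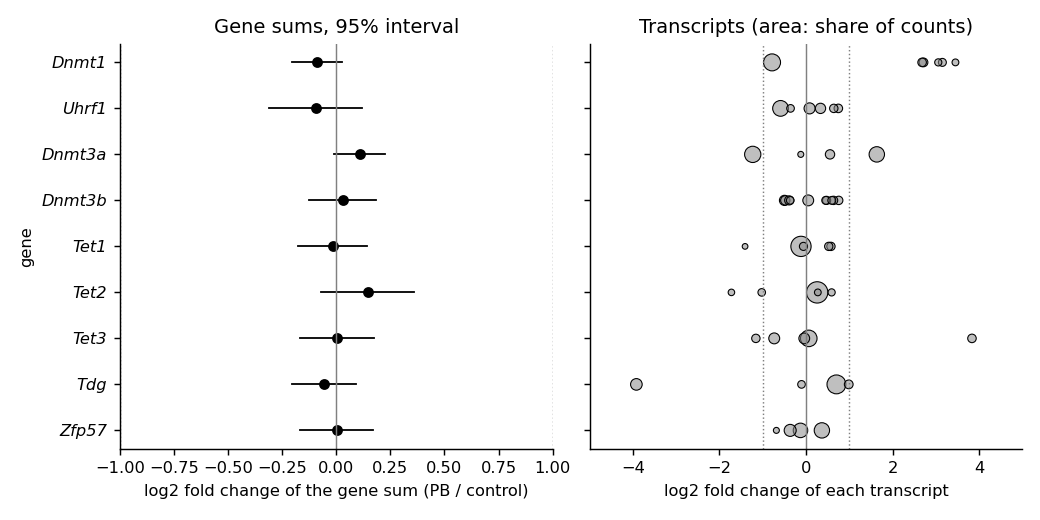
Log2 fold change (PB over control) of the 9 tested genes as gene sums with 95% intervals on the left, and of their 49 tested transcripts on the right, where the area of a point is the share of the gene's counts; dotted lines mark a 2-fold change, and the axes differ in range. Gene sums stay between -0.10 and 0.15, whereas transcripts range from -3.92 to 3.83.

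The spread between pools was narrow for the sums and wide for the transcripts. The coefficient of variation within groups was 3.31% to 9.02% for the 9 gene sums, with a median of 4.71% against 10.4% over all genes. For the 49 tested transcripts of these genes the median was 62.4%, against 45.1% over all transcripts. Reads that fit several transcripts of a gene are shared out among them by StringTie, and each transcript count depends on how that was done. Of the 75 transcripts, 58 had a count in some pool, 17 were at 0 in every pool, and 49 passed the filter.

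None of the 49 transcripts was called, against 0.0332% of all 51227 transcripts tested. An unadjusted p-value under 0.05 was found for 4 of them in edgeR, against 3.56% of all transcripts. DESeq2 tested 52 of the members and gave such a p-value for 6, and for 5206 of all 63489 transcripts it tested. The FDR of all 49 was 1.00 in edgeR's test. The groups did not overlap for 3 transcripts, NM_001199433.1 of Dnmt1 and XM_006505773.3 and XM_006505775.3 of Tet3, against 9.95% of all transcripts. A fold change of at least 2 was estimated for 13 of the 49, and for 20.1% of all transcripts. The transcript with most counts differed between pools in 7 of the 9 genes, and in 44.2% of all genes with several expressed transcripts. Only Tet1 and Tet2 among the 9 had the same leading transcript in all 6 pools.

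Dnmt1 had 4 different leading transcripts in 6 pools. XM_006509988.2 held 220, 26992 and 23420 counts in control and 0, 23438 and 5875 counts in PB. In control 1 its place was taken by MSTRG.18403.8, an assembled transcript with 23820 counts there and 0 counts in each of the other 5 pools. Both share 5054 exonic bases and start 112 bp apart. In PB 1 the counts went to NM_001199433.1 with 9657 and XM_011242393.2 with 9108, and in PB 3 to NM_010066.4 with 7080 and NM_001199431.1 with 6583. These 3 pools stood apart from the others of their own groups. NM_010066.4, the standard somatic form, had 688, 704 and 483 counts in control and 4892, 607 and 7080 counts in PB, so PB 2 lay within the control range (log2 fold change 2.68, unadjusted p = 0.0259 and FDR = 1.00 by edgeR). NM_001199433.1 had 514, 884 and 676 counts in control and 9657, 1059 and 2708 in PB (log2 fold change 2.71, unadjusted p = 0.0283 and FDR = 1.00 by edgeR). GENCODE places its start codon at 20941452, the same as in the oocyte form and downstream of the codon at 20952785 used by NM_010066.4.

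No reads were assigned to the start of the oocyte form. NM_001199432.1, which starts at position 20959888, just downstream of the CG-poor window shown above, had 0 counts in all 6 pools. The main start group joined 6 transcripts whose 5′ ends lie between 20952623 and 20952979. It measured 262, 250.3 and 265 CPM in control and 149, 249 and 239 CPM in PB, and every PB pool was below every control pool. It was the only 1 of the 17 start groups tested whose groups did not overlap, against 10.6% of all start groups. None of the 17 was called, against 0.0386% of all 25905, and 0 had an unadjusted p-value under 0.05 in the main edgeR fit or in DESeq2, against 4.25% in edgeR. The log2 fold change was -0.29 (95% interval -0.80 to 0.23), and -0.09 without PB 1. A downstream start at 20951909 held 4.89, 2.67 and 4.03 CPM in control and 92.5, 6.59 and 3.99 CPM in PB. Its estimated log2 fold change of 3.15 (95% interval -0.22 to 6.53) rested on PB 1 and was 0.45 without that pool.

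**Figure D3:**
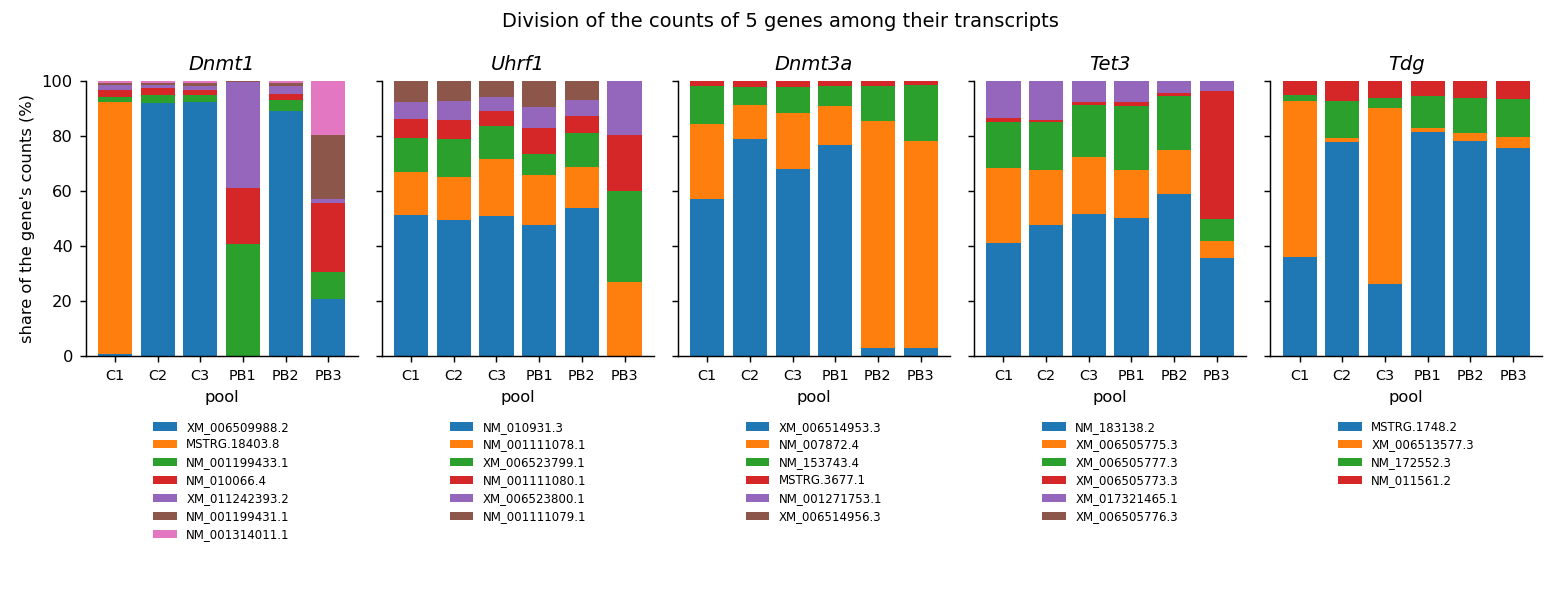
Share of the counts of Dnmt1, Uhrf1, Dnmt3a, Tet3 and Tdg (%) held by each transcript in the control pools (C1 to C3) and PB pools (PB1 to PB3); colours mark transcripts and are reused between genes. Pools depart from others of their group, such as control 1, PB 1 and PB 3 for Dnmt1, PB 3 for Uhrf1 and Tet3, and control 2 for Tdg.

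Uhrf1 was divided alike in 5 pools and otherwise in PB 3. NM_010931.3 led with 8534, 10596 and 7876 counts in control and 7622 and 9906 in PB 1 and PB 2, but had 16 counts in PB 3. XM_006523799.1, which starts 5 bp away and lacks 14 of its bases, had 2057, 2963 and 1861 counts in control and 1247, 2309 and 5567 counts in PB. NM_001111078.1, from the downstream start, had 2574, 3388 and 3203 counts in control and 2934, 2699 and 4445 counts in PB, and NM_001111080.1, the Uhrf1 transcript of smallest p-value, was at 0.75 (SE 0.41) on the log2 scale. All RefSeq forms with a mapped start codon use the codon at 56305098. By start, the upstream group at 56303337 measured 132, 143 and 121 CPM in control and 118, 142 and 76.1 CPM in PB. The downstream group at 56304313 measured 37.9, 41.8 and 43.0 CPM in control and 45.0, 37.1 and 67.6 CPM in PB. In both cases PB 3 stood outside the other pools. The log2 fold changes were -0.24 (95% interval -0.83 to 0.35) and 0.29 (95% interval -0.30 to 0.87), and -0.02 and 0.01 without PB 3.

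For Dnmt3a, 2 transcripts of the long form exchanged places between pools. XM_006514953.3 had 18307, 29191 and 21434 counts in control and 25999, 1144 and 1123 counts in PB. NM_007872.4 had 8821, 4616 and 6455 counts in control and 4879, 31190 and 30021 counts in PB. PB 1 resembled the control pools, and PB 2 and PB 3 did not. The log2 fold changes were -1.23 and 1.64, neither with an unadjusted p-value under 0.05 in edgeR, and the transcripts share 9593 bases with starts 481 bp apart. Joined as 1 start group, the long form measured 278, 292 and 296 CPM in control and 314, 315 and 268 CPM in PB (log2 fold change 0.05, 95% interval -0.14 to 0.24).

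The short form of Dnmt3a is known as the main form of the enzyme in germ and embryonic stem cells. Its transcript NM_153743.4, from the start at 3891744, measured 44.8, 20.4 and 31.5 CPM in control and 25.0, 46.2 and 69.8 CPM in PB as a start group. PB 3 was highest and control 2 lowest, and the groups overlapped. The log2 fold change was 0.54 (95% interval -0.62 to 1.71) and 0.15 without PB 3. It held 6.41% to 20.3% of the counts that carried the name Dnmt3a. An assembled transcript on the opposite strand, MSTRG.3677.1, also carries that name and held 563 to 809 counts per pool. Its log2 fold change as a start group was -0.13 (95% interval -0.52 to 0.26), and leaving it out of the gene sum, an alternative added after seeing the data, called none of the members.

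**Figure D4:**
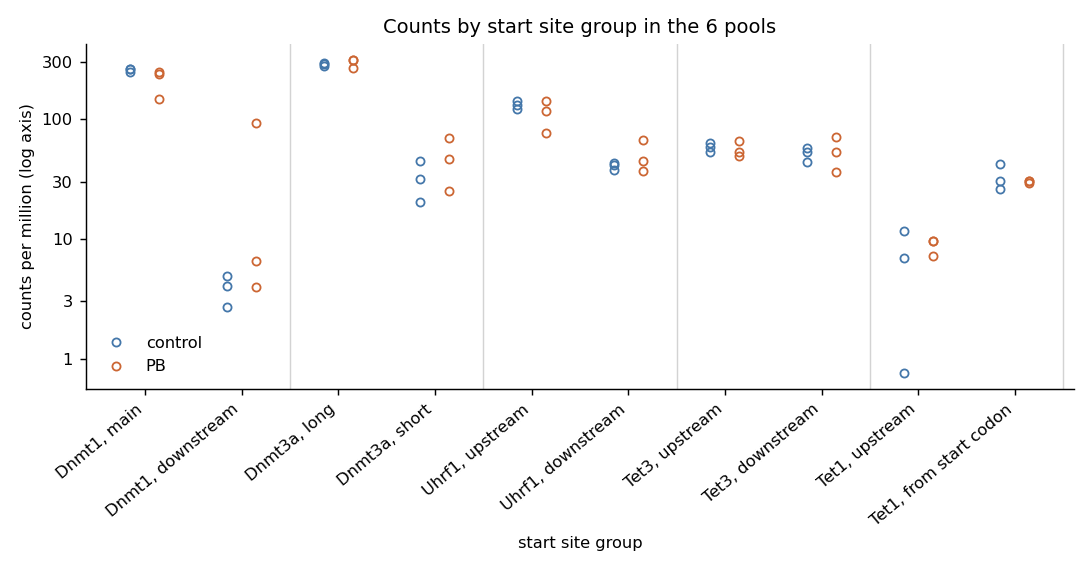
CPM (log axis) of 10 start site groups of 5 genes in each control pool (blue) and PB pool (orange). The groups overlap for all but the main Dnmt1 start, and single pools lie apart, such as PB 1 at 92.5 CPM for the downstream Dnmt1 start and control 3 at 0.754 CPM for the upstream Tet1 start.

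Dnmt3b was annotated with 18 transcripts, of which 10 start between 153649165 and 153649449 of chromosome 2 and held 99.8% of its counts. In control 3, 5 of these transcripts had 0 counts, whereas in the other 5 pools they had between 79 and 248. NM_010068.5 had 169, 199 and 373 counts in control and 135, 150 and 277 counts in PB. NM_001271747.1, the most abundant, had 174, 198 and 367 counts in control and 163, 446 and 187 in PB. NM_001271745.1 and NM_001003960.4, the other members with at least 10% of the counts, had between 118 and 282 counts per pool, with both maxima in control 3. The start group as a whole varied by 3.31% within groups and had a log2 fold change of 0.03 (95% interval -0.16 to 0.21).

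Tet1 was led by NM_001253857.1, with 2563, 3511 and 3987 counts in control and 2892, 3150 and 3567 counts in PB. This RefSeq model begins at its start codon, so its 5′ end need not mark a transcription start. The upstream group, from 62887569 to 62887581, measured 11.8, 6.88 and 0.754 CPM in control and 9.66, 7.25 and 9.53 CPM in PB. One of its minor transcripts, XR_871717.2, had the smallest p-value of the gene, with 0 to 102 counts per pool and a log2 fold change of -1.41 (SE 2.20). Control 3 was low there and highest for the group from the start codon, which measured 26.3, 30.3 and 42.3 CPM in control and 29.4, 30.7 and 30.7 CPM in PB. Tet2 was led by NM_001040400.2 with 2501, 2263 and 3003 counts in control and 3222, 2980 and 3469 counts in PB. Its groups overlapped, and it held 82.2% of the Tet2 counts (log2 fold change 0.26, unadjusted p = 0.250 by edgeR).

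Tet3 counts fell about equally on 2 start groups, with the upstream group holding 41.2% to 64.4% of its counts. The downstream group is NM_183138.2, which had 4263, 6191 and 5393 counts in control and 5274, 7256 and 4217 counts in PB. Upstream, XM_006505773.3 had 115, 110 and 134 counts in control and 153, 151 and 5472 counts in PB. The groups did not overlap, but PB 1 and PB 2 exceeded the highest control pool by few counts, and the log2 fold change of 3.83 rested on PB 3 (unadjusted p = 0.0626 by edgeR). XM_006505775.3 had 2823, 2621 and 2163 counts in control and 1864, 1977 and 745 counts in PB (log2 fold change -0.73). It was the only 1 of 22 transcripts with 10% or more of their gene whose share did not overlap between groups, against 8.79% over all genes. XM_017321465.1 had 1412, 1838 and 777 counts in control and 821, 517 and 447 counts in PB (log2 fold change -1.16, unadjusted p = 0.0348 and FDR = 1.00 by edgeR). XM_006505777.3 had 1771, 2260 and 1971 counts in control and 2432, 2448 and 953 counts in PB. The upstream group as a whole measured 62.7, 58.9 and 53.6 CPM in control and 53.5, 49.6 and 65.6 CPM in PB, and the groups overlapped.

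The counts of Tdg were divided differently between pools. MSTRG.1748.2, an assembled form, held 75.5% to 81.5% of them in the PB pools and 77.7% in control 2, but 35.8% in control 1 and 26.4% in control 3. It had 1430, 3353 and 911 counts in control and 2997, 3001 and 3090 counts in PB. XM_006513577.3, of which 2791 bases are shared with it, led in control 1 and control 3 and had 2264, 75 and 2205 counts in control and 58, 107 and 170 counts in PB. Control 2 was divided like the PB pools and the groups overlapped. The log2 fold change of -3.92 had an unadjusted p-value of 0.0321 and an FDR of 1.00 by edgeR. All 4 Tdg transcripts start within 17 bp, and as 1 start group they had a log2 fold change of -0.06 (95% interval -0.22 to 0.10).

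Zfp57 was read from starts at 37002377 to 37002525 and at 37003666 of chromosome 17, and the upstream transcript NM_001168502.1 had 0 counts in every pool. XM_017317458.1 had 575, 692 and 272 counts in control and 677, 649 and 665 counts in PB. NM_001013745.2 had 443, 514 and 640 counts in control and 371, 623 and 524 counts in PB. Control 3 was the lowest pool for the first and the highest for the second. NR_033137.1, the only form from the downstream start, is a non-coding record in RefSeq, but its GENCODE match has the start codon of the coding forms at 37004886. It had 296, 323 and 483 counts in control and 288, 229 and 383 counts in PB. Its start group had a log2 fold change of -0.37 (95% interval -1.16 to 0.41), and the groups overlapped. The start group at 37002377 to 37002525 held 77.3% of the Zfp57 counts. Its log2 fold change was 0.11 (95% interval -0.17 to 0.39), also with overlapping groups.

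Genes that work with these enzymes were examined next as gene sums, and none of them was called. Of the 8 maintenance partners, 3 lay above 0 and 5 below, with a median log2 fold change of -0.04. Cdca7l, a paralogue of the chromatin remodelling partner CDCA7, measured 30.4, 29.8 and 31.1 CPM in control and 26.7, 27.3 and 24.5 CPM in PB, and the groups did not overlap (log2 fold change -0.22, SE 0.061, unadjusted p = 0.0104 and FDR = 0.888 by edgeR). Dppa3, which encodes an antagonist of UHRF1 in oocytes, measured 20.1, 11.9 and 21.6 CPM in control and 12.2, 12.5 and 12.8 CPM in PB. Control 2 lay with the PB pools (log2 fold change -0.52, SE 0.21, unadjusted p = 0.0476 and FDR = 0.888 by edgeR). Of the 10 germ cell markers, 4 had a log2 fold change above 0 and 6 below. Pou5f1 had the lowest, -0.58 (SE 0.20), with 30.6, 18.3 and 30.7 CPM in control and 17.0, 17.6 and 18.6 CPM in PB, and Sycp3 the highest, 0.34 (SE 0.28).

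Of the 8 genes that guide or assist de novo methylation, 6 were tested, 3 above 0 and 3 below, and the lowest p-values belonged to Prdm14, with a log2 fold change of -0.74 (SE 0.35), and Nsd1, with 0.10 (SE 0.065). Among 10 genes of TET cofactors and metabolites the median was -0.02. Gadd45g and Gadd45a had the lowest p-values there, with log2 fold changes of -0.21 (SE 0.091) and -0.30 (SE 0.17). The 11 base excision repair genes, which act after TDG, had a median of -0.04, and Apex1 and Neil3 were at -0.08 (SE 0.040) and -0.25 (SE 0.14). The 9 silencing partners of ZFP57 had a median of -0.0018, with the corepressor Trim28 at -0.07 (SE 0.047) and Zfp445 at 0.06 (SE 0.044).

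Among the 9 readers of methylated CpG, 3 lay above 0 and 6 below, with a median of -0.03. Zbtb4, a zinc finger protein among them, was at 0.08 (SE 0.048).

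Germline genes that methylation keeps silent in somatic cells were examined as well. Their level in whole ovaries cannot separate germ cell content from enzyme activity. Of 15 such genes, 11 had a log2 fold change above 0 and 4 below, with a median of 0.24 against 0.0020 over all genes, and none had an unadjusted p-value under 0.05. Hormad1 and Taf7l, with the lowest p-values, were at 0.32 (SE 0.22) and 0.38 (SE 0.27). Summed, the 15 genes measured 1832, 1506 and 1835 CPM in control and 2279, 1281 and 2467 CPM in PB, so PB 2 was below every control pool and the other PB pools above. The germ cell markers, of which 7 are also in this list, had the same lowest pool, PB 2. Of 10 genes of S phase and mitosis, when DNMT1 acts, 2 lay above 0 and 8 below, with a median of -0.14. Mcm3 and Ccnb1 were at -0.16 (SE 0.054, unadjusted p = 0.0260 and FDR = 0.888 by edgeR) and -0.23 (SE 0.11).

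**Figure D5:**
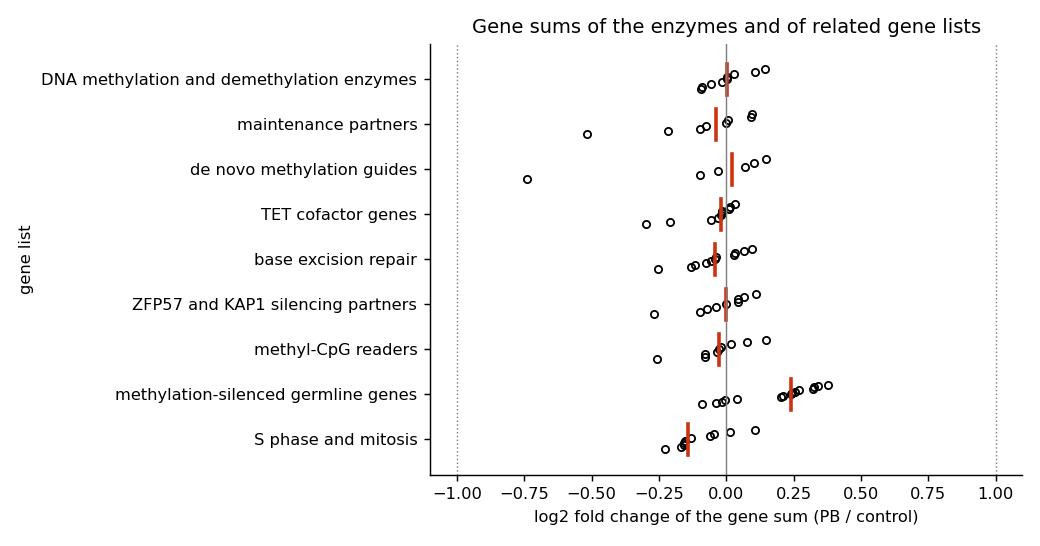
Log2 fold change (PB over control) of gene sums for the tested enzymes and for 8 lists of related genes; each circle is a gene, the red line the median of the list, and dotted lines a 2-fold change. The enzymes lie between -0.10 and 0.15, and every list has genes on both sides of 0.

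As a description over the 6 pools, the genes whose log2 CPM followed Dnmt1 most closely were Dnd1, Tril and Zdhhc8, with Pearson's r of 0.993 to 0.997. For Uhrf1 these were Plek2, Bcl6b and St3gal3, at 0.995 to 0.997, and for Tet1 Rhox2h, Gm20554 and Rasl12, at 0.985 to 0.991. They are the highest of 19435 genes over 6 points that share their libraries, and no test was made.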

How the data were processed

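The authors aligned strand-specific reads to mm10, assembled transcripts with StringTie on RefSeq, and deposited whole-number counts per transcript, which prepDE derives from coverage. The submitters' processing notes name bcl2fastq 2.17.1.14, HISAT2 2.1.0, StringTie 1.3.5 and DESeq2 1.30.0. The deposited results of the authors' DESeq2 comparison served for gene names only, and its fold changes, p-values and 6 columns of values per pool were not used. The deposited transcriptome annotation gave positions and exon lengths.

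Counts were summed by gene name, and also by start site, where 5′ ends within 500 bp on 1 strand were joined. Transcripts without a gene name held 3.05% to 4.49% of the counts of a pool and entered no gene sum. All features passing filterByExpr (minimum count 10, minimum total 15) were fitted in edgeR 4.0.16 (R 4.3.3, limma 3.58.1, the R package data.table, version 1.17.8) after TMM scaling, control against PB, with the quasi-likelihood F-test and Benjamini-Hochberg adjustment over all features. Calls needed an FDR of 0.05 or less and a change of 2-fold or more. The standard error is the size of the log2 fold change divided by the root of F, and intervals are at 95%. The script was tested on simulated data. DESeq2 1.42.0 was 1 alternative, beside other scalings, filters, thresholds and groupings, known transcripts only, a replicate block and leaving out each pool.

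Groups followed the treatment labels. The names given are the 10 members, their start site groups, their transcripts with at least 10% of the counts, the smallest p-value or presence in 1 group only, the 2 genes of each list with the smallest p-values, and the 3 genes most correlated with Dnmt1, Uhrf1 and Tet1. One result that this rule names is not reported here. Other transcripts and marker genes named were chosen after their values were seen. The members and lists were chosen with earlier results of these data known. Promoter windows came from RefSeq (GRCm38.p6) and start codons from GENCODE M21. Library totals of at least 97165644 counts give gene sums little counting error, so the spread between pools limits the precision.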

Additional observations from a re-analysis of the deposited data

How the results depend on the processing

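No member was called under any alternative run, and the limits are 3 pools per group and the division of reads among transcripts. Unadjusted p-values under 0.05 by edgeR arose for some gene sums in alternatives. They were 0.0355 for Dnmt1 without PB 2, 0.0468 for Dnmt3a by StringTie locus and 0.0225 for Tdg with known transcripts only. In the same order, these fits gave such p-values for 2441 of 19821 genes, 950 of 21208 loci and 803 of 19229 genes tested. Among member start groups, 1 of 18 had such a p-value without PB 2, and 2 of 18 without PB 3. With ends joined within 50 bp it was 2 of 23. Over all start groups these fits gave 2415 of 27034, 991 of 27018 and 1263 of 31496. Among member transcripts there were 0 to 8 such p-values without a pool. The highest, 8 of 49, arose without PB 1, against 2263 of all 55321 transcripts. The number of all genes called was 3, and became 5 with no fold threshold, 11 with the DESeq2 Wald test, 8 with known transcripts only, 0 with the replicate block, and 3 to 9 when a pool was left out (5 without control 1, control 2 or PB 3, and 9 without PB 2). Transcripts called were 17, and became 51 at an FDR of at most 0.1, 1169 with DESeq2, 39 with a filter of 10 counts in every pool of a group, 0 with the replicate block, and 0 to 19 without a pool (0 without control 1, 1 without control 3, 2 without PB 1 and 9 without PB 3). Start site groups called were 10, and became 419 with DESeq2, 4 with ends joined within 50 bp, 0 with the replicate block, and 2 to 24 without a pool (5 without control 1, 17 without control 2, 2 without control 3, 19 without PB 2 and 24 without PB 3). Transcripts whose share did not overlap were 1, and 1 to 4 without a pool (4 without control 1 or PB 3, and 3 without control 2, PB 1 or PB 2). Groups separate more easily with fewer pools, so these counts cannot be set against the 8.79% over all genes, which used all pools. Same-numbered pools had correlations of deviations of 0.093, 0.147 and -0.018, and differently numbered pools of -0.167 to 0.096. These values overlap, so they do not decide whether the replicate numbers pair the pools. Known transcripts only gave Dnmt1 a log2 fold change of 0.44, since this leaves out MSTRG.18403.8, and Tdg one of -1.37, without MSTRG.1748.2.
Some log2 fold changes changed sign. Tet3 was -0.000507 with DESeq2 size factors, -0.00098 with the Wald test, -0.0020 with no filter, -0.000344 with the replicate block and -6.72e-05 with known transcripts only. Zfp57 was -0.0023 with DESeq2 size factors, -0.0024 with the Wald test, -0.0034 with no filter, -0.0016 with the stricter filter and -0.0017 with known transcripts only. NM_001271747.1 was -0.011 with the replicate block. The range over the fits without 1 pool was -0.072 to 0.031 for Tet1, -0.073 to 0.053 for Tet3, -0.037 to 0.037 for Zfp57, -0.27 to 0.32 for XM_006505777.3, -0.19 to 0.28 for NM_183138.2, -0.33 to 0.68 for XM_006523799.1, -0.089 to 0.19 for NM_001111078.1, -0.26 to 0.096 for NM_001253857.1, -0.59 to 0.54 for NM_001271747.1, -0.34 to 0.091 for NM_001013745.2, -0.80 to 0.013 for NM_010068.5, -0.080 to 1.21 for the upstream Tet1 start, -0.26 to 0.098 for the Tet1 group from the start codon, -0.16 to 0.12 for the Tet1 start at 62866173, -0.18 to 0.029 for the upstream Tet3 start and -0.19 to 0.28 for the downstream Tet3 start. The cause was not tested.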
